A study of Mus musculus with 8 samples.

Results

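MHC class II molecules are the surface receptors with which dendritic cells, B cells and thymic epithelium show peptides to CD4+ T cells. The genes described here are the 10 that encode their chains, the chaperones that load peptide onto them and the transactivator that switches them on. They are H2-Aa, H2-Ab1, H2-Eb1, H2-Eb2, H2-DMa, H2-DMb1, H2-Oa, H2-Ob, Cd74 and Ciita, chosen by name through the RefSeq accession of each probe. All 10 were on the array, with 12 probes, and they make up 10 of the 24148 genes or accessions tested. RNA came from dendritic cells sorted out of mouse thymus by maturation status and by Sirpa, a surface receptor that splits thymic dendritic cells into subsets. This gave 4 groups of 2 arrays: Sirpa-positive mature, Sirpa-positive immature, Sirpa-negative mature and Sirpa-negative immature cells. The series title names CD40, a costimulatory receptor, with dendritic cell maturation and Treg development in the thymus. The labels give the same tissue and cell type for all groups, and give no strain, age, genotype, treatment agent or second sort marker. Nothing in them tells whether 2 arrays of a group stem from different mice or sorts, so the p-values below rest on a spread between samples that may be technical.

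A classical class II molecule pairs an alpha with a beta chain (H2-Aa with H2-Ab1, and an E alpha chain with H2-Eb1). It travels from the endoplasmic reticulum bound to the invariant chain, the product of Cd74, which blocks the groove. In the endosome, proteases cut the invariant chain down to a remnant, DM (H2-DMa with H2-DMb1) exchanges that remnant for peptide, and DO (H2-Oa with H2-Ob) restrains DM. H2-Eb2 is a gene beside H2-Eb1 that encodes an E-like beta chain and is less well characterised. Ciita does not bind DNA itself but joins factors that sit on paired X and Y boxes in front of these genes. In maturing dendritic cells elsewhere, shutdown of Ciita transcription and slower turnover of surface class II protein have been described, and neither protein nor turnover was measured here.

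Each value below is a probe's processed signal divided by the 75th percentile of its array, as log2, so that 0 is the 75th percentile and 1 unit is a doubling. Arrays are named by group and by the number in their title. The Sirpa label was matched by the probe for Sirpa, which differed between the subsets by 6.83 log2 units in immature cells and by 4.82 in mature cells, higher in Sirpa-positive cells. Ccr7, the chemokine receptor of mature dendritic cells, was 6.16 units higher in mature than immature Sirpa-positive cells and 5.69 higher in Sirpa-negative cells. Arrays of the same group correlated at r = 0.979 to 0.987 over the genes or accessions tested, against 0.908 to 0.963 across groups. The 9 dendritic cell markers checked, Itgax and Flt3 among them, were detected on both arrays of 3 groups; in Sirpa-positive mature cells 7 were, and Xcr1 was on neither array. The 8 arrays had 52.9% to 65.5% of spots well above background, and their number limits the precision. All 12 probes of the 10 genes were well above background on all 8 arrays, and none was saturated.

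The promoters of part of these genes hold letters of the X and Y boxes. In the RefSeq promoter table (assembly GRCm38.p6, 250 bases before to 50 after each start site), 7 of the 10 genes had a window, 8 windows in all. The letters TGATTGG, which hold the CCAAT core of a Y box on the other strand, and GCAAC followed after any 2 bases by ATG, the letters of an X box in part of these genes, were searched on both strands. Both patterns were written after these windows had been read, so their share among the 10 genes is a description only. The stretches below, 60 bases each and printed 5′ to 3′ in the direction of transcription, lie upstream of the start sites. They are shown because H2-Eb2 passed the test on maturation and H2-Eb1 did not, while both carry the same pair of motifs. Capitals mark the matches.
H2-Eb1, chr17:34305756-34305815, + strand: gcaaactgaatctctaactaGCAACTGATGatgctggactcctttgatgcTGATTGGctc
H2-Eb2, chr17:34325523-34325582, + strand: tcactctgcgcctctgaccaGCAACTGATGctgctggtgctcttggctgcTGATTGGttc
H2-Ob, chr17:34238796-34238855, + strand: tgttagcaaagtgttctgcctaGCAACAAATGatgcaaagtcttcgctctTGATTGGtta
H2-Oa, chr17:34092284-34092343, + strand: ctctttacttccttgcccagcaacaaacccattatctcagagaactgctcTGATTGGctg
H2-DMb1, chr17:34153078-34153137, + strand: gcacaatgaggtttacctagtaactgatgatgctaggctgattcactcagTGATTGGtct
H2-Aa, chr17:34287864-34287923, - strand: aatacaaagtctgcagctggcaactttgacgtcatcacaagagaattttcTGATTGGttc

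TGATTGG was in 6 of the 8 windows and in 7.82% of all 32851 windows of that length. The X-box letters were in 3 of the 8 and in 0.524% of all windows. Both were in the windows of H2-Eb1, H2-Eb2 and H2-Ob, and in 20 windows (0.0609%) of all. The patterns do not overlap, and 20 bases lie between them in H2-Eb1 and in H2-Eb2, against 18 in H2-Ob. The windows of H2-DMa held neither pattern. These matches are letters in a window and no measure of binding.

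In comparisons of single groups, only a few class II genes passed the test. H2-Eb2 rose 9.23-fold on maturation in Sirpa-positive and 9.41-fold in Sirpa-negative cells, and H2-DMa fell 1.79-fold on maturation in Sirpa-negative cells. In Sirpa-positive cells H2-Ob was lower than in Sirpa-negative ones, 2.23-fold when immature and 2.14-fold when mature. Averaged over both subsets, H2-DMa, H2-DMb1 and H2-Ob were also called lower on maturation. The classical chains, Cd74, H2-Oa and Ciita passed the test in no comparison. Genes that did not pass may still have changed, since 4% of changes of 1 log2 unit were recovered in data simulated for Sirpa-positive maturation. In sorted bulk samples, fewer cells of a type and less RNA per cell cannot be told apart. The test throughout was limma's moderated test with Benjamini-Hochberg adjustment over all 24148 genes and a threshold of 0.05.

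On maturation of Sirpa-positive cells, 1 of the 10 genes was called higher and 0 lower, where 6.89% of all genes were called, 4.35% higher and 2.54% lower. On maturation of Sirpa-negative cells, 1 was higher and 1 lower, where 16.5% of all genes were called, 9.23% higher and 7.24% lower. Between immature subsets 0 of the 10 were higher and 1 lower in Sirpa-positive cells, where 11.6% of all genes were called, 7.23% higher and 4.39% lower. Between mature subsets the count was again 0 higher and 1 lower, where 5.47% were called, 3.38% higher and 2.1% lower. With 10 genes, 1 call is the smallest count above 0, and none of these counts stands apart from the background. The median log2 difference of the 10 genes was 0.062, -0.22, -0.17 and 0.055 in these 4 comparisons, against 0.028, -0.010, -0.11 and -0.075 over all genes.

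**Figure D1:**
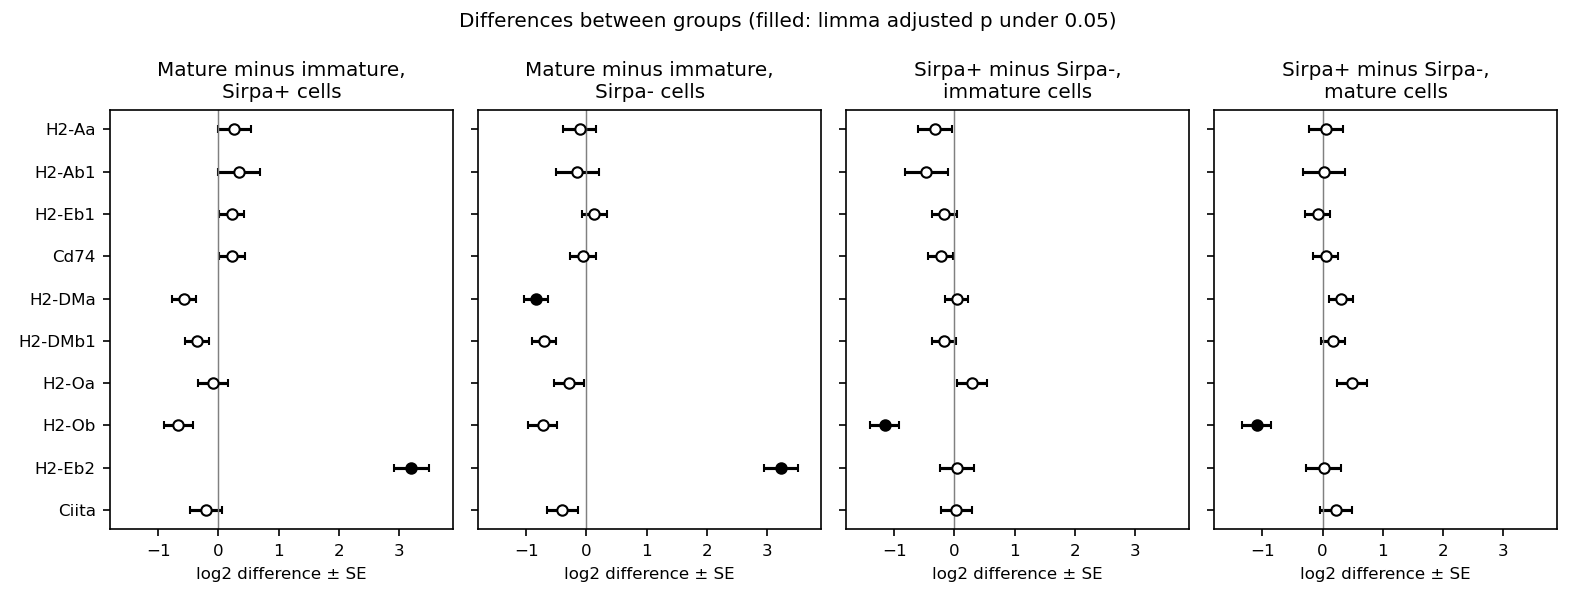
Log2 difference (x axis) of each of the 10 genes (y axis) in the 2 maturation and the 2 subset comparisons, with points for the estimate, bars for ± 1 SE and filled points for a limma adjusted p under 0.05. The 5 filled points are H2-Eb2 on maturation in both subsets, H2-DMa on maturation in Sirpa-negative cells, and H2-Ob in both subset comparisons.

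The effect of maturation did not differ detectably between the subsets in any of the 10 genes. The limma interaction term called 0 of the 10 and 0% of all genes, and 0 of the 10 had an unadjusted p under 0.05. Since no interaction was called, maturation averaged over both subsets and the subset difference averaged over both states were added after the data had been seen. Averaged maturation called 1 of the 10 higher and 3 lower, where 21.8% of all genes were called, 11% higher and 10.8% lower. The averaged subset difference called 0 higher and 1 lower, where 14.7% were called, 8.05% higher and 6.66% lower.

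The classical chains and the invariant chain had the brightest probes of the 10 genes, and none of the 4 passed the test. H2-Aa, the A alpha chain, read 8.18 and 8.81 on the Sirpa-positive mature arrays 1 and 6, and 8.06 and 8.41 on the immature arrays 5 and 3. In Sirpa-negative cells it read 8.56 and 8.32 on the mature arrays 2 and 8, and 8.43 and 8.68 on the immature arrays 7 and 4. The groups overlapped in both maturation comparisons, and the highest value came from Sirpa-positive mature array 6.

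H2-Ab1, the A beta chain, read 7.65 and 8.78 in Sirpa-positive mature cells and 7.85 and 7.91 in Sirpa-positive immature cells. In Sirpa-negative cells it read 8.31 and 8.08 when mature and 8.35 and 8.34 when immature. The arrays of Sirpa-positive mature cells lay further apart for this gene than the means of any of the 4 groups. A second H2-Ab1 probe showed the same split, with 6.83 and 8.03 on those arrays. Its other arrays lay between 7.27 and 7.62.

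H2-Eb1, the E beta chain, read 7.43 and 7.75 in Sirpa-positive mature, 7.30 and 7.44 in Sirpa-positive immature, 7.78 and 7.56 in Sirpa-negative mature and 7.52 and 7.56 in Sirpa-negative immature cells. Cd74 read 8.72 and 9.08, 8.62 and 8.73, 8.95 and 8.75, and 8.85 and 8.97 in the same order of groups. Both genes spanned less than 0.5 log2 units over the 8 arrays, 0.48 for H2-Eb1 and 0.45 for Cd74. H2-Ab1 had the largest difference of the 4 genes between groups, -0.47 ± 0.352 (SE, n = 2 arrays a group) in Sirpa-positive against Sirpa-negative immature cells, with a limma adjusted p of 0.464. On maturation the 4 genes differed by between -0.15 and 0.34, and none passed the limma test in any comparison or under any alternative setting.

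**Figure D2:**
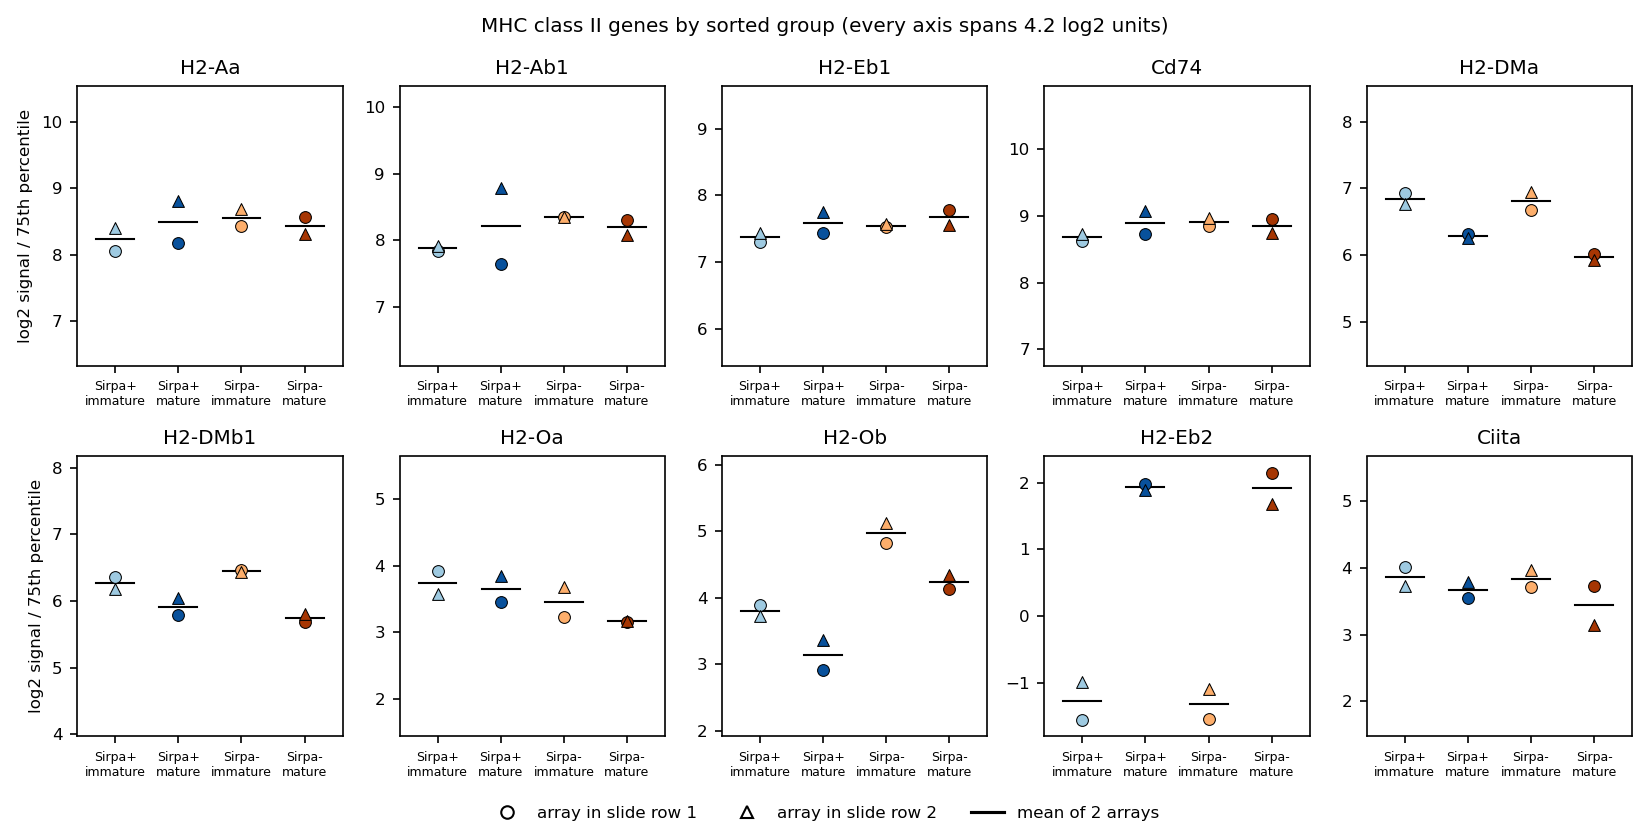
Log2 signal relative to the array's 75th percentile (y axis, every panel spanning 4.2 units) of the 10 genes in the 4 sorted groups (x axis), with circles for arrays in slide row 1, triangles for arrays in slide row 2 and lines for the mean of 2 arrays. H2-Eb2 splits by maturation and H2-Ob by Sirpa, while Cd74 and H2-Eb1 stay within 0.5 units.

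These 4 probes were very bright. Processed signals ran from 79532 to 123417 intensity units for Cd74, 66152 to 85078 for H2-Aa, 58211 to 72048 for H2-Ab1 and 31639 to 49935 for H2-Eb1. Cd74 was between the 67th and 119th brightest of 55681 probes on each array, and H2-Eb1 between the 227th and 340th. The highest signal among them was 15.8% of the scanner's saturation value of 776934, and 0 spots were flagged as saturated. The H2-Ab1 signal varied little over the arrays, while the arrays' 75th percentile ran from 147 on Sirpa-positive mature array 6 to 313 on Sirpa-positive immature array 5. Among the scaled values, array 6 was the highest for H2-Aa, H2-Ab1 and Cd74.

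Other genes as bright shared these shifts. Among the 248 genes at least as bright as H2-Eb1, 236 lay above 0 on maturation of Sirpa-positive cells, with a median of 0.32. On maturation of Sirpa-negative cells 31 did, with a median of -0.23. In the immature subset comparison 2 of the 248 lay above 0, with a median of -0.53. Between mature subsets 119 did, with a median of -0.012. The test called 0 of the 248 on maturation in Sirpa-positive cells, 6 (2.42%) in Sirpa-negative cells, 4 (1.61%) between immature subsets and 0 between mature subsets. Cst3, the cystatin that inhibits cysteine cathepsins, was 1 of the bright genes that passed, at 2.90-fold lower in immature cells that were Sirpa-positive (limma adjusted p = 0.00658). That fold includes any shift shared by the bright genes, and no value for Cst3 under other scalings is given. Between immature subsets the classical chains and Cd74 were lower in Sirpa-positive cells under the main scaling, with values of -0.17 to -0.47. They were higher, from 0.013 to 0.30, under quantile normalization with or without normexp and under cyclic loess, which follows a probe's brightness. No direction between subsets is therefore given for them.

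**Figure D3:**
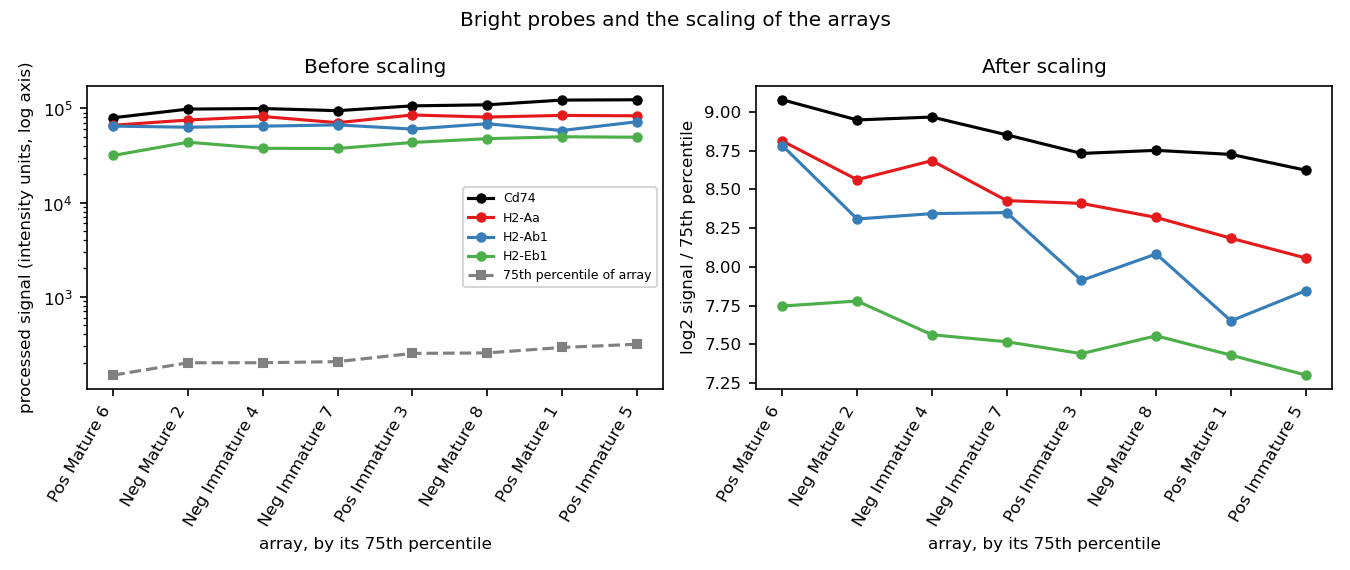
Processed signal on a log axis (left) and log2 signal relative to the 75th percentile (right) of the probes for Cd74, H2-Aa, H2-Ab1 and H2-Eb1 on the 8 arrays, ordered by their 75th percentile (grey squares, left). As log2, H2-Aa and H2-Ab1 vary less before scaling than after it, while Cd74 and H2-Eb1 vary more before scaling. The scaled values tend to fall from Sirpa-positive mature array 6 (75th percentile 147) towards Sirpa-positive immature array 5 (313).

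For DM, the peptide exchange factor, RNA of both chains was lower in mature cells when averaged over both subsets. H2-DMa, the DM alpha chain, read 6.31 and 6.25 in Sirpa-positive mature cells and 6.92 and 6.77 in Sirpa-positive immature cells. In Sirpa-negative cells it read 6.01 and 5.93 when mature and 6.68 and 6.94 when immature. All 4 mature arrays lay below all 4 immature arrays.

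The fall of H2-DMa was -0.84 ± 0.197 (SE, n = 2 arrays a group) in Sirpa-negative cells, 1.79-fold, with a limma adjusted p of 0.0288. In Sirpa-positive cells the difference was -0.57 ± 0.197 with a limma adjusted p of 0.157. The interaction of 0.27 ± 0.279 was not called (limma adjusted p = 0.827), so the subsets are not shown to differ. Averaged over both subsets H2-DMa fell by 0.70 ± 0.140, 1.63-fold (limma adjusted p = 0.0116). The call in Sirpa-negative cells held under 9 of 20 alternatives, with adjusted p up to 0.148, and was lost on leaving out any of the 4 arrays compared or either Sirpa-positive immature array. It was also lost with the slide row, which holds 1 array of each group, as a block (limma adjusted p = 0.0641). Quantile normalization and cyclic loess lost it too. It held under normexp with quantile normalization, median scaling and the authors' values. The 248 genes at least as bright as H2-Eb1 had a median of -0.23 in this comparison, and H2-DMa was dimmer than H2-Eb1. The part of that shift in the fall of H2-DMa was not tested. The averaged call held under 18 of 19, and was lost without Sirpa-positive immature array 5 (limma adjusted p = 0.0561).

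H2-DMb1, the DM beta chain, read 5.79 and 6.04 in Sirpa-positive mature and 6.36 and 6.18 in Sirpa-positive immature cells. It read 5.68 and 5.80 in Sirpa-negative mature and 6.46 and 6.43 in Sirpa-negative immature cells. The mature arrays again all lay below the immature ones. Its differences were -0.35 ± 0.199 in Sirpa-positive cells (limma adjusted p = 0.393) and -0.70 ± 0.199 in Sirpa-negative cells (0.0527), and neither passed. Averaged over both subsets it fell by 0.53 ± 0.141, 1.44-fold (limma adjusted p = 0.0352), a call that held under 10 of 19 alternatives and was lost with the slide row as a block (limma adjusted p = 0.074) and on leaving out any array but Sirpa-positive mature array 6.

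The 2 DM chains had similar differences, with H2-DMa minus H2-DMb1 at -0.21 in Sirpa-positive and -0.14 in Sirpa-negative cells. H2-DMb2, a close relative of H2-DMb1, has its own probe, and its maturation differences were -0.046 and 0.39, with no call. Probes for H2-DMb1 and H2-DMb2, and for H2-Eb1 and H2-Eb2, may share signal, since each pair is related in sequence, and cross-hybridisation was not tested.

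Of the 2 chains of DO, which restrains DM, only H2-Ob was called. H2-Ob, the beta chain, read 2.92 and 3.37 in Sirpa-positive mature and 3.89 and 3.73 in Sirpa-positive immature cells. It read 4.14 and 4.35 in Sirpa-negative mature and 4.82 and 5.12 in Sirpa-negative immature cells. Every Sirpa-positive array lay below every Sirpa-negative one, and within each subset the mature arrays lay below the immature ones.

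Between immature subsets the H2-Ob difference was -1.16 ± 0.238 (SE, n = 2 arrays a group), 2.23-fold lower in Sirpa-positive cells, with a limma adjusted p of 0.0209. Between mature subsets it was -1.10 ± 0.238, 2.14-fold lower, with a limma adjusted p of 0.0439. Averaged over both states it was 2.19-fold lower (-1.13 ± 0.169, limma adjusted p = 0.0041), and this call held under all 19 alternatives run for it. By row of the slide, the averaged difference was -1.07 and -1.18. The mature call held under 8 of 20 alternatives and was lost on leaving out any 1 array, with limma adjusted p of 0.0588 to 0.178, and with the slide row as a block (0.0683). The immature call was lost without Sirpa-positive immature array 5 (0.0839) or 3 (0.151), or Sirpa-negative immature array 4 (0.115), as limma adjusted p. It was also lost with no filter on dim probes.

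Markers of other cells moved with the groups too. The summed level of 9 macrophage and monocyte markers on the array was 356 to 576 times the 75th percentile in Sirpa-positive cells and 2.84 to 9.43 times in Sirpa-negative cells. C1qc and Cd163 were not well above background on any Sirpa-negative array. This list moved with the subset comparison in which H2-Ob was lower and the cathepsins higher, and its part in those results was not tested. The summed level of 12 B cell markers was 37.0 to 38.1 in Sirpa-positive mature, 17.9 to 19.2 in Sirpa-positive immature, 14.7 to 20.0 in Sirpa-negative mature and 9.17 to 9.24 in Sirpa-negative immature cells. Among cells of the same state or subset it was higher where H2-Ob, a gene known from B cells, was lower. Mature cells also had the higher H2-Eb2, and the part of these markers in that rise was not tested.

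On maturation H2-Ob differed by -0.66 ± 0.238 in Sirpa-positive cells (limma adjusted p = 0.168) and -0.73 ± 0.238 in Sirpa-negative cells (0.0835), and neither passed. Averaged over both subsets it fell by 0.70 ± 0.169, 1.62-fold (limma adjusted p = 0.0247), which held under 13 of 19 alternatives and was lost without Sirpa-positive mature array 1, Sirpa-negative mature array 2, either Sirpa-positive immature array or Sirpa-negative immature array 4. A second H2-Ob probe, dimmer, gave 1.16 and 0.99, 1.89 and 2.26, 2.36 and 1.72, and 2.84 and 3.09 in Sirpa-positive mature, Sirpa-positive immature, Sirpa-negative mature and Sirpa-negative immature cells. Tested singly it gave differences between subsets of -0.88 (limma adjusted p = 0.0991) and -0.97 (0.119), in the same direction but uncalled. Its maturation differences were -1.01 (0.0859) and -0.92 (0.0665). Its averaged differences were called, at -0.92 between subsets (limma adjusted p = 0.0203) and -0.96 on maturation (0.0132). Unlike the main probe, it did not separate the subsets fully, since both Sirpa-positive immature arrays lay above Sirpa-negative mature array 8.

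H2-Oa, the DO alpha chain, passed in no comparison. It read 3.46 and 3.84 in Sirpa-positive mature, 3.92 and 3.57 in Sirpa-positive immature, 3.16 and 3.17 in Sirpa-negative mature and 3.23 and 3.68 in Sirpa-negative immature cells. The immature subsets overlapped. Its subset differences were 0.29 ± 0.254 in immature and 0.49 ± 0.254 in mature cells, and neither passed (limma adjusted p = 0.528 and 0.421). The subset difference averaged over both states was 0.39 (limma adjusted p = 0.216), and it was called under normexp with quantile normalization (0.026) and with the authors' values (0.0462). The log2 difference between H2-Oa and H2-Ob was 1.45 units larger in immature Sirpa-positive cells and 1.58 larger in mature ones than in Sirpa-negative cells, values given without a test.

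H2-Eb2 showed the largest change of the 10 genes, a rise on maturation of similar size in both subsets. It read 1.98 and 1.89 in Sirpa-positive mature cells and -1.56 and -0.99 in Sirpa-positive immature cells. In Sirpa-negative cells it read 2.15 and 1.69 when mature and -1.54 and -1.10 when immature. The mature and immature arrays lay far apart, and the subsets overlapped within each state.

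The rise of H2-Eb2 was 3.21 ± 0.288 (SE, n = 2 arrays a group) in Sirpa-positive cells, 9.23-fold, with a limma adjusted p of 0.00211. In Sirpa-negative cells it was 3.23 ± 0.288, 9.41-fold, with a limma adjusted p of 0.000919. The difference between the 2 rises was -0.028 ± 0.407 (limma adjusted p = 0.991), and the subset differences were 0.045 in immature and 0.017 in mature cells. Processed signals ran from 70.4 to 1141 intensity units. Both calls held under all 20 alternatives, with log2 values from 2.56 to 3.49 in Sirpa-positive and from 2.65 to 3.46 in Sirpa-negative cells. By row of the slide the rises were 3.54 and 2.88 in Sirpa-positive, and 3.68 and 2.78 in Sirpa-negative cells.

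Markers of further cell types also differed between mature and immature cells. The counts of markers are to be read against all genes, of which 4.35% rose and 2.54% fell in Sirpa-positive cells. In Sirpa-negative cells 9.23% of all genes rose and 7.24% fell. Of 11 thymocyte and T cell markers, 2 rose and 0 fell in Sirpa-positive cells and 8 rose and 0 fell in Sirpa-negative cells, with median differences of 0.74 and 1.45 log2 units. Their summed level, in multiples of the 75th percentile, was 27.1 to 30.4 in Sirpa-positive mature and 32.9 to 39.0 in Sirpa-positive immature cells, against 16.9 to 18.9 and 8.38 to 9.19 in Sirpa-negative mature and immature cells. In Sirpa-positive cells the sum was thus lower in mature cells while the median difference was above 0. Thymic epithelial markers summed to 7.71 to 8.92 and 9.20 to 13.9 in Sirpa-positive mature and immature cells, and to 11.1 to 12.5 and 4.74 to 5.48 in Sirpa-negative ones. Of the 6 tested, 2 rose and 1 fell in Sirpa-positive cells, and 3 rose and 0 fell in Sirpa-negative cells. Of 8 plasmacytoid dendritic cell markers, 0 rose and 1 fell in Sirpa-positive cells and 1 rose and 3 fell in Sirpa-negative cells, with sums of 105 to 138 over all arrays. The part of these markers in the maturation results for H2-Eb2 and DM was not tested.

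H2-Eb1, its neighbour with the same motif pair, moved by 0.22 ± 0.209 and 0.13 ± 0.209 on maturation, with no call. The rise of H2-Eb2 exceeded that of H2-Eb1 by 2.99 log2 units in Sirpa-positive and 3.11 in Sirpa-negative cells.

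Ciita, the transactivator, passed in no comparison. It read 3.55 and 3.78 in Sirpa-positive mature, 4.01 and 3.73 in Sirpa-positive immature, 3.74 and 3.14 in Sirpa-negative mature and 3.71 and 3.97 in Sirpa-negative immature cells. The groups overlapped in all 4 comparisons. Its maturation differences were -0.20 ± 0.264 in Sirpa-positive cells and -0.40 ± 0.264 in Sirpa-negative cells (limma adjusted p = 0.749 and 0.370). Which of its promoters was used was not measured.

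**Figure D4:**
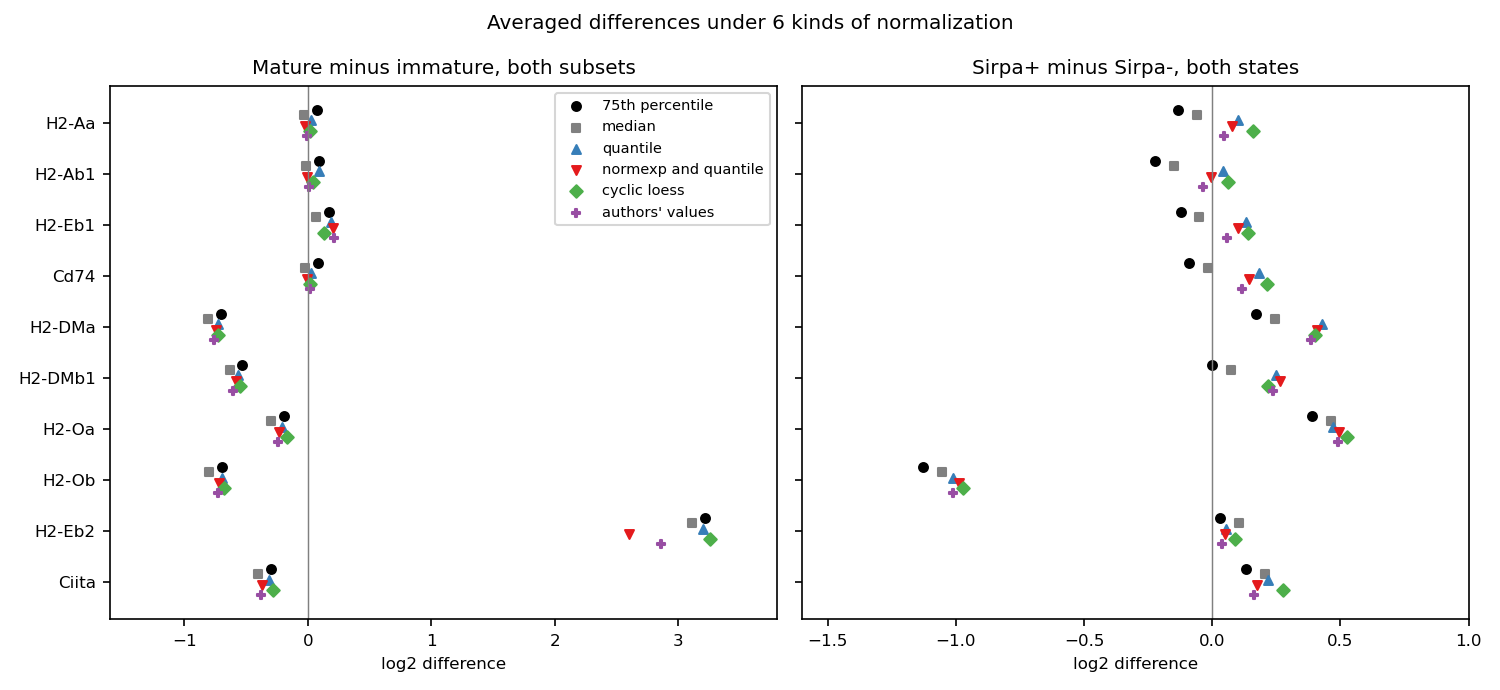
Averaged log2 differences (x axis) of the 10 genes (y axis) under 6 kinds of normalization, for mature minus immature cells (left) and Sirpa-positive minus Sirpa-negative cells (right), with 1 symbol per normalization. H2-Eb2 stays above 2.5 on the left and H2-Ob near -1 on the right, while the classical chains and Cd74 lie near 0, on both sides of it on the right.

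Some regulators of Ciita and DNA-binding partners of its product passed the test. The numbers of regulators are to be read against all genes. Of 17 regulators tested, Irf1, an interferon response factor, rose 3.76-fold on maturation in Sirpa-positive cells (limma adjusted p = 0.00706) and 7.19-fold in Sirpa-negative cells (0.000882). In Sirpa-positive cells the counts were 1 higher and 1 lower of 17, where 4.35% and 2.54% of all genes were, with Tcf4 the fallen one at 1.92-fold. In Sirpa-negative cells they were 2 higher and 1 lower (9.23% and 7.24% of all genes), the others being Irf4, 12.3-fold higher, and Ifngr1, an interferon gamma receptor chain, 2.53-fold lower. Between subsets 2 of 17 were higher in Sirpa-positive cells, Irf4 and Tcf4, and 2 lower, Irf8 and Bcl6, in immature and in mature cells. Of all genes, 11.6% were called between immature and 5.47% between mature subsets. Rfx5 and Rfxank, subunits of the factor that binds the X box, rose on maturation of Sirpa-negative cells by 0.94 and 0.97 log2 units (limma adjusted p = 0.0258 and 0.0376). They were picked after their values were seen, and the other DNA-binding partners, such as Rfxap and Nfya, were not counted separately.

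Part of a wider list of class II pathway genes was higher in Sirpa-positive immature cells, and part rose on maturation of Sirpa-negative cells. This list mixes endosomal proteases and other endosomal genes with H2-DMb2 and DNA-binding partners of Ciita, Rfx5 and Rfxank among them. Its counts are therefore not counts of endosomal genes alone. Of 30 other pathway genes tested, 11 rose and 0 fell on maturation of Sirpa-negative cells, while 1 rose and 0 fell in Sirpa-positive cells. Of all genes, 9.23% rose and 7.24% fell in Sirpa-negative cells, and 4.35% and 2.54% in Sirpa-positive cells. The limma interaction called 0 of the 30 and 0% of all genes, so its calls cannot tell whether the subsets differ in these genes. Of the 30, 11 had an unadjusted limma p under 0.05, against 1946 of all 24148 genes. The median interaction was -0.37 for the 30 and 0.024 over all genes, values given without a test of the list. The median maturation differences of the 30 were 0.36 in Sirpa-negative and 0.15 in Sirpa-positive cells, against -0.010 and 0.028 over all genes.

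Cd83, a surface protein of mature dendritic cells that opposes class II turnover, rose 5.29-fold in Sirpa-positive and 6.85-fold in Sirpa-negative cells. Lgmn, the asparagine endopeptidase that cuts antigen and invariant chain, rose 9.77-fold in Sirpa-negative cells, and Cd63, a tetraspanin of late endosomes, 49.0-fold. Neither was called in Sirpa-positive cells, and averaged over both subsets Lgmn rose 3.21-fold and Cd63 8.14-fold. The mean of Lgmn was 0.40 in Sirpa-negative immature and 3.69 in Sirpa-negative mature cells, and already 4.61 in Sirpa-positive immature cells. In immature cells 11 of the 30 were higher in Sirpa-positive cells and 1 (Cst3) lower (7.23% and 4.39% of all genes), with Ctsd 56.2-fold, Lgmn 18.4-fold and Ctsl 14.5-fold higher, all proteases of the endosome or lysosome. In mature cells 4 were higher and 0 lower (3.38% and 2.1% of all genes), led by Ctsd at 18.2-fold and Ctsl at 8.11-fold. Ctss, the protease that makes the last cut of invariant chain in dendritic cells, was 1.11 log2 units higher in Sirpa-positive immature cells (limma adjusted p = 0.0462). Marchf1, the ligase that marks class II for turnover, differed by 0.37 and 0.062 on maturation, with no call.

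For the 3 genes called in a maturation or subset comparison of single groups, the genes with the most similar values were looked up among 12953 named genes, by Pearson's r over the 8 arrays. They are a description, since the 8 arrays fall into 4 groups that share their levels. H2-Eb2 was most like Tnfrsf4 (r = 0.996), a costimulatory receptor of the tumour necrosis factor receptor family, Mmp25 (0.995), a membrane-bound metalloproteinase, and Cdk5r1 (0.995), an activator of the kinase Cdk5. On maturation of Sirpa-positive cells these rose by 4.44, 3.20 and 3.62 log2 units, and in Sirpa-negative cells by 4.73, 3.48 and 3.83, against 3.21 and 3.23 for H2-Eb2. H2-Ob was most like Lcorl (0.992), Sgms1 (0.991), a sphingomyelin synthase, and Trim45 (0.990). Of these, Sgms1 was 2.16 log2 units lower in Sirpa-positive immature cells (limma adjusted p = 0.000946). H2-DMa was most like Mrps11 (0.995), a mitochondrial ribosomal protein, Stap1 (0.991), an adaptor protein, and Parp1 (0.990), a DNA repair enzyme. Parp1 fell by 0.87 log2 units on maturation in Sirpa-positive cells (limma adjusted p = 0.0387) and by 1.19 in Sirpa-negative cells (0.00712).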

How the data were processed

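The members, gene lists, comparisons and alternatives were chosen with earlier results of these data known. Per the file headers, Agilent Feature Extraction 10.7.3.1 made the deposited spot intensities, background-subtracted and detrended; the submitters' processing notes give version 10.5, and the difference was not resolved. Flags for background, saturation and outliers come from the same deposited files. A further table that the authors deposited gives log2 values (array medians 5.99 to 6.01), inferred as such from their range; its sorted columns differ by at most 0.126, as after quantile normalization. The submitters' processing notes also name limma.

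From the intensities, log2 of the processed signal over the 75th percentile of each array was computed here. Outlier spots (110 to 270 an array) were set missing, and spots of a probe averaged over 55681 probes. The 33689 probes that both arrays of 1 or more groups showed well above background were kept, and the kept probe with the highest mean stood for a gene, which left 24148 genes or accessions. Probes were named through RefSeq (GRCm38.p6); the array header names mm9, so probe and gene coordinates are not printed, and those of the promoter stretches are RefSeq's own (GRCm38.p6). All 8 arrays entered 1 model of 4 group means in limma 3.58.1 (R 4.3.3; 4 residual degrees of freedom, 3.26 prior), two-sided, threshold 0.05. On data simulated for the Sirpa-positive maturation comparison (24104 genes, 50 changed per size), 0% were recovered at 0.5 log2 units, 4% at 1, 54% at 2 and 74% at 3, with 2 false calls. Fewer genes were changed in the simulation than the 1664 called in the data for this comparison. That makes the adjusted threshold stricter, so recovery in the data may differ. All 10 members are named, with the most similar genes of those called in any of the 5 comparisons that were not averaged; other list genes are those with the smallest p. Rfx5, Rfxank, Ctss, Marchf1, H2-DMb2 and the markers singled out were named after their values were seen.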

Additional observations from a re-analysis of the deposited data

How the results depend on the processing

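Over all 10 genes and 7 comparisons, alternatives gave 1370 values, of which 1278 kept direction and side of the threshold. That number includes 104 whose sign changed while both values were smaller than their SE. A further 43 lost their call, 16 gained one and 33 turned direction, all of the latter uncalled before and after; the cause was not tested. Between immature subsets, normexp with quantile normalization turned Cd74 to 0.20, H2-Aa to 0.093, H2-Ab1 to 0.013, H2-DMb1 to 0.18 and H2-Eb1 to 0.26. Quantile normalization gave 0.27, 0.14, 0.018, 0.21 and 0.28 for the same genes. Cyclic loess gave 0.30 for Cd74, 0.18 for H2-Aa, 0.017 for H2-Ab1 and 0.27 for H2-Eb1, and the authors' values gave 0.15 for Cd74, 0.039 for H2-Aa and 0.22 for H2-Eb1. On maturation of Sirpa-positive cells Cd74 turned to -0.068, -0.059, -0.069 and -0.015 under these 4 settings in this order, and H2-Eb1 to -0.0055 under cyclic loess. The interaction of H2-Eb1 turned to -0.31, -0.30, -0.27 and -0.32 in the same order. The averaged subset difference of Cd74 turned to 0.14, 0.18 and 0.21 under the first 3, and under cyclic loess that of H2-Aa to 0.16 and of H2-Eb1 to 0.14. Without Sirpa-positive mature array 6, H2-Ab1 turned to -0.54 between mature subsets and to -0.19 in averaged maturation; the highest values on leaving out 1 array were 0.59 and 0.38, without Sirpa-positive mature array 1. Counts of called members also moved. Maturation of Sirpa-positive cells went from 1 to 3 (normexp with quantile normalization), 2 (the authors' values) and 2 (mean of a gene's probes), and leaving out 1 array gave 1 to 1. Maturation of Sirpa-negative cells went from 2 to 4 under normexp with quantile normalization, the authors' values, the mean of probes and trended robust variances. It went to 1 under quantile normalization, cyclic loess, no filter, slide row as a block and only the compared arrays, and leaving out 1 array gave 1 to 2. The immature subset comparison went from 1 to 0 with no filter and to 0 to 1 without 1 array. The mature one went from 1 to 0 under median scaling, no filter, slide row as a block and only the compared arrays, and was 0 to 0 without any 1 array. Averaged maturation went from 4 to 2 with no filter and 1 to 4 without 1 array. The averaged subset difference went from 1 to 3 under normexp with quantile normalization and 2 with the authors' values, and stayed at 1 to 1 without 1 array. Calls over all genes ran from 394 to 2442 (main 1664) for maturation in Sirpa-positive cells, 1615 to 5364 (3977) in Sirpa-negative cells, 1232 to 3648 (2806) between immature and 579 to 1707 (1322) between mature subsets, 0 to 186 (0) for the interaction, and 3086 to 7334 (5275) and 2181 to 4923 (3554) for the averaged comparisons. Median scaling moved the median of all genes from -0.010 to -0.13 on maturation of Sirpa-negative cells and from 0.015 to -0.090 in averaged maturation. No paired analysis by replicate number was possible because the groups share no such number, and the slide row, which holds 1 array of each group, served as a block instead. The averaged comparisons and their alternatives were chosen after seeing the data. With 2 arrays a group, changes of 1 log2 unit or less were seldom recovered in simulation, which changed fewer genes than were called in the data.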
